A study of Mus musculus with 4 samples.

Results

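Glutathione transferases were followed across 4 Visium sections of mouse liver, a method in which barcoded spots on a slide each take up RNA from a patch of several cells and are read as molecule counts (UMIs, unique molecular identifiers). The 10 members were chosen by symbol, Gsta1, Gsta2, Gsta3 and Gsta4 of the alpha class, Gstm1, Gstm2, Gstm3 and Gstm4 of the mu class, Gstp1 of the pi class and Gstt1 of the theta class. All 10 were found among the 31253 features of the files. The sections fall into 2 groups, MAFL (MAFL-1 and MAFL-2, fed WD for 8 weeks) and MASH (MASH-1 and MASH-2, fed WD for 16 weeks), so that the model name and the weeks of feeding change together and cannot be told apart. Both groups received WD, and no section from mice on another diet is part of the comparison. The labels name no strain, genotype or age, and leave unsaid if the 2 sections of each group stem from different mice. The p-values below for MASH against MAFL thus measure the spread between these sections, which may be technical. Those of the fits that compare zones, with the section as a block, measure how zone differences vary over these sections, which may be technical as well.

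Glutathione transferases couple the tripeptide glutathione to reactive electrophiles, among them drug metabolites, plant toxins and the aldehydes left by lipid peroxidation, and so make them soluble for export. They work as dimers within a class, and liver is one of the tissues richest in them. In the liver lobule, blood flows from the portal tract to the central vein, and cytochromes of the pericentral hepatocytes make many of the electrophiles that these enzymes receive. Their genes lie in clusters of close copies, several of which are known targets of Nrf2, the sensor of electrophile stress, and of the xenobiotic receptors CAR and PXR.

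The sections held 1862 to 2467 spots and 32249289 to 63808230 UMIs, with 3 UMIs in a whole section worth 0.047 to 0.093 CPM (a gene's UMIs per 1000000 UMIs of the section or zone). Each section's spots were ranked by the log2 ratio of Cyp2f2, a periportal gene, to Cyp2e1, a pericentral gene, each count plus 1, and cut into 3 equal classes called the pericentral, midlobular and periportal zone. All 15 genes of a periportal hepatocyte list were called higher in the periportal zone, and 15 of 16 of a pericentral list were called lower there, none of them a glutathione transferase. Defining hepatocyte transcripts were abundant in every section, with Alb, the albumin gene, at 48049 to 56457 CPM. The sections also differed in depth and in other cells: periportal zones were deeper in MASH (medians of 33004.5 and 34042 UMIs per spot) than pericentral ones (22896 and 15751), and the 11 monocyte and macrophage markers summed to 239 to 272 CPM in MAFL and 768 to 1014 CPM in MASH. The 9 T and B cell markers summed to 18.4 to 23.6 CPM in MAFL and 43.4 to 173.5 CPM in MASH. Igkc, an immunoglobulin chain, gave most of the MASH sums (30.9 CPM in MASH-1 and 147.9 CPM in MASH-2). Of the 9 log2 fold changes 8 were above 0, and edgeR called none. The stellate and fibroblast, Kupffer cell and endothelial marker sums were also higher in both MASH sections (323 to 529 against 192 to 210 CPM, 469 to 515 against 273 to 364 CPM, and 165 to 178 against 141 to 144 CPM). The sum of the 7 hepatocyte markers overlapped between the groups in whole sections (86885 to 88562 and 86488 to 89240 CPM) but in no zone. It was lower in MASH in the pericentral (67323 to 68565 against 72278 to 73042 CPM) and midlobular zones (77992 to 81704 against 84554 to 89547 CPM). In the periportal zone it was higher in MASH (104203 to 105786 against 101145 to 103254 CPM). Most of that periportal sum was Alb, at 61580 and 62714 CPM in MAFL and 70781 and 69577 CPM in MASH. Of the 7 periportal log2 fold changes, 1 was above 0 and 6 were below. Serpina1c, for 1, stood at 12409 and 10755 CPM in periportal MAFL and 7731 and 6841 CPM in periportal MASH. What part these have in the differences below was not tested. In such mixed spots, fewer cells of a type and less RNA per cell cannot be told apart.

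Gsta1 and Gsta2 belong to the alpha cluster on chromosome 9, and the stretches before their starts are shown because these 2 genes share the sequence there while differing widely in the size of their change. Promoters of 9 of the 10 members were matched in RefSeq (GRCm38.p6), and none is given here for Gsta4. Over the 250 bases before the start, Gsta1 and Gsta2 were identical at 183 of 240 aligned positions (76.2%), and they shared an unbroken stretch of 29 bases, in capitals below. The longest stretch shared by any other pair of members was 10 bases. Gsta3, on chromosome 1, is added as the only member whose window holds the letters TGACNNNGC, in capitals in its line. They are a form of the antioxidant response element, to which Nrf2 binds. Bases that lie within the gene's RefSeq span, from another transcript, are left off, which leaves 250, 203 and 230 bases. The windows are chr9:78230419-78230668 on the plus strand, chr9:78347193-78347395 on the minus strand and chr1:21240335-21240564 on the plus strand.
Gsta1: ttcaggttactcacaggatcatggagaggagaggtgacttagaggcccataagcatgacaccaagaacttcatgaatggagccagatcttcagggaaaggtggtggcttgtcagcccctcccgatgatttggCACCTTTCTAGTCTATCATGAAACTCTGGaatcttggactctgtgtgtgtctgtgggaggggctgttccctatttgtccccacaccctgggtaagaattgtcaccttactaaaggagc
Gsta2: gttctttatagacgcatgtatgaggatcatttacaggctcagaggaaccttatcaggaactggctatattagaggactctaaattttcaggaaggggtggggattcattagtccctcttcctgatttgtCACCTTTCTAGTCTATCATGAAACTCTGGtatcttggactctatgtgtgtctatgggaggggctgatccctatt
Gsta3: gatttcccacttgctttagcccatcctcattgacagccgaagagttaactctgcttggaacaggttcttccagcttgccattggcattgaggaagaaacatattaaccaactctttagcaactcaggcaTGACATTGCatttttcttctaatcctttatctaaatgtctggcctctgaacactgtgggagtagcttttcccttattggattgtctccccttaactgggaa

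The letters TGACNNNGC, searched on both strands, stood as TGACATTGC 121 bases before the Gsta3 start. Of all 32851 promoters, 10.2% hold them in a window of this length. Near forms of these letters, such as TGAGTCAGC in the Gstp1 window, were not counted. The xenobiotic response core GCGTG, the motif of the Ahr receptor, was found before Gsta2, Gstm1 and Gstp1, beside 28.2% of all promoters. The Gsta2 match lies 7 bases before the listed start, among the 47 bases within its RefSeq span that are left off its line. The Wnt effector motif CTTTGAT was found before none of the 9 (3.21% of all promoters). A match is a description of the letters, and none of the motifs was tested for binding.

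The question of the series' group comparison is how MASH differs from MAFL, and among the members it was led by Gsta1 and Gstm3. In whole sections 2 of the 10 members were called higher in MASH and none lower, where 0.456% of the 13593 genes tested were called in either direction and 0.309% higher. All 10 log2 fold changes were above 0, with a median of 0.63 beside 0.01 over all genes tested. In 9 of the 10, Gstp1 being the exception, both MASH sections lay above both MAFL sections, as did 34.1% of all genes.

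Gsta1, an alpha form known to be induced by electrophiles, stood at 0.28 CPM in MAFL-1 and 0.26 CPM in MAFL-2 (9 and 10 UMIs), and at 7.10 CPM in MASH-1 and 13.9 CPM in MASH-2 (453 and 620 UMIs). The gene was thus close to the floor of counting in MAFL and plainly present in both MASH sections, and the groups did not overlap. Its log2 fold change was 5.14 (SE 0.40, edgeR adjusted p = 0.0086). The ratio of the summed UMIs was 36.7 (exact 95% interval for counting error alone 23.4 to 61.1). With the replicate number as a block the edgeR adjusted p became 0.067 at a log2 fold change of 5.12.

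Gstm3, a mu form, read 2.82 and 2.68 CPM in MAFL-1 and MAFL-2, against 9.75 and 14.2 CPM in MASH-1 and MASH-2. Both MASH sections were well above both MAFL sections, and the spread within MAFL was small. The log2 fold change was 2.01 (SE 0.21, edgeR adjusted p = 0.0157). The call was lost without MAFL-1 (edgeR adjusted p = 0.0695), without MASH-2 (log2 fold change 1.79, edgeR adjusted p = 0.0501) and with the replicate block (edgeR adjusted p = 0.111).

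Gsta4, the alpha form with high activity towards hydroxynonenal, an aldehyde of lipid peroxidation, measured 16.2 and 23.1 CPM in the MAFL sections and 40.2 and 46.8 CPM in the MASH sections. Gsta2, the near copy of Gsta1, measured 9.55 and 12.6 CPM in MAFL against 22.1 and 24.1 CPM in MASH. Neither pair of groups overlapped, yet neither gene passed the test in whole sections, with log2 fold changes of 1.04 (SE 0.21, edgeR adjusted p = 0.0855) and 0.95 (SE 0.18, edgeR adjusted p = 0.0791). DESeq2 called both (adjusted p = 0.00183 for Gsta4 and 0.00407 for Gsta2).

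The 2 members with the most UMIs, Gsta3 and Gstm1, showed smaller differences. Gsta3, which in mice detoxifies the epoxide of aflatoxin, was at 490.2 and 660.1 CPM in MAFL and 1028 and 883.0 CPM in MASH, a log2 fold change of 0.63 (SE 0.23, edgeR adjusted p = 0.218). Gstm1 was at 560.3 and 477.7 CPM in MAFL and 915 and 762 CPM in MASH, a log2 fold change of 0.60 (SE 0.20, edgeR adjusted p = 0.197). The MASH sections were the higher ones for both genes, and neither difference passed the test.

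For Gstt1, Gstm2 and Gstm4 the distance between the groups was close to that between sections of a group. Gstt1, a theta form that acts on small halogenated compounds, measured 156.7 and 241.4 CPM in MAFL and 280.0 and 262.0 CPM in MASH (log2 fold change 0.34, SE 0.25, edgeR adjusted p = 0.480). Gstm2 measured 14.9 and 25.5 CPM against 33.2 and 28.6 CPM (0.51, SE 0.29, edgeR adjusted p = 0.386). Gstm4 measured 20.2 and 22.4 CPM against 28.3 and 24.8 CPM (0.22, SE 0.17, edgeR adjusted p = 0.508).

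Gstp1, the pi form, was the member whose MASH sections lay furthest apart. It stood at 40.9 and 53.9 CPM in MAFL-1 and MAFL-2, but at 13.7 CPM in MASH-1 and 150.8 CPM in MASH-2. One MASH section was thus below both MAFL sections and the other above both, 11.0-fold apart. Among 4159 genes with a mean of at least 20 CPM, only 2 differed more between the 2 MASH sections. The log2 fold change of 0.64 (SE 1.17, edgeR adjusted p = 0.803) turned to -1.84 without MASH-2 (edgeR adjusted p = 0.0882), and was 1.48 without MASH-1 (edgeR adjusted p = 0.0319), so no direction can be given.

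**Figure D1:**
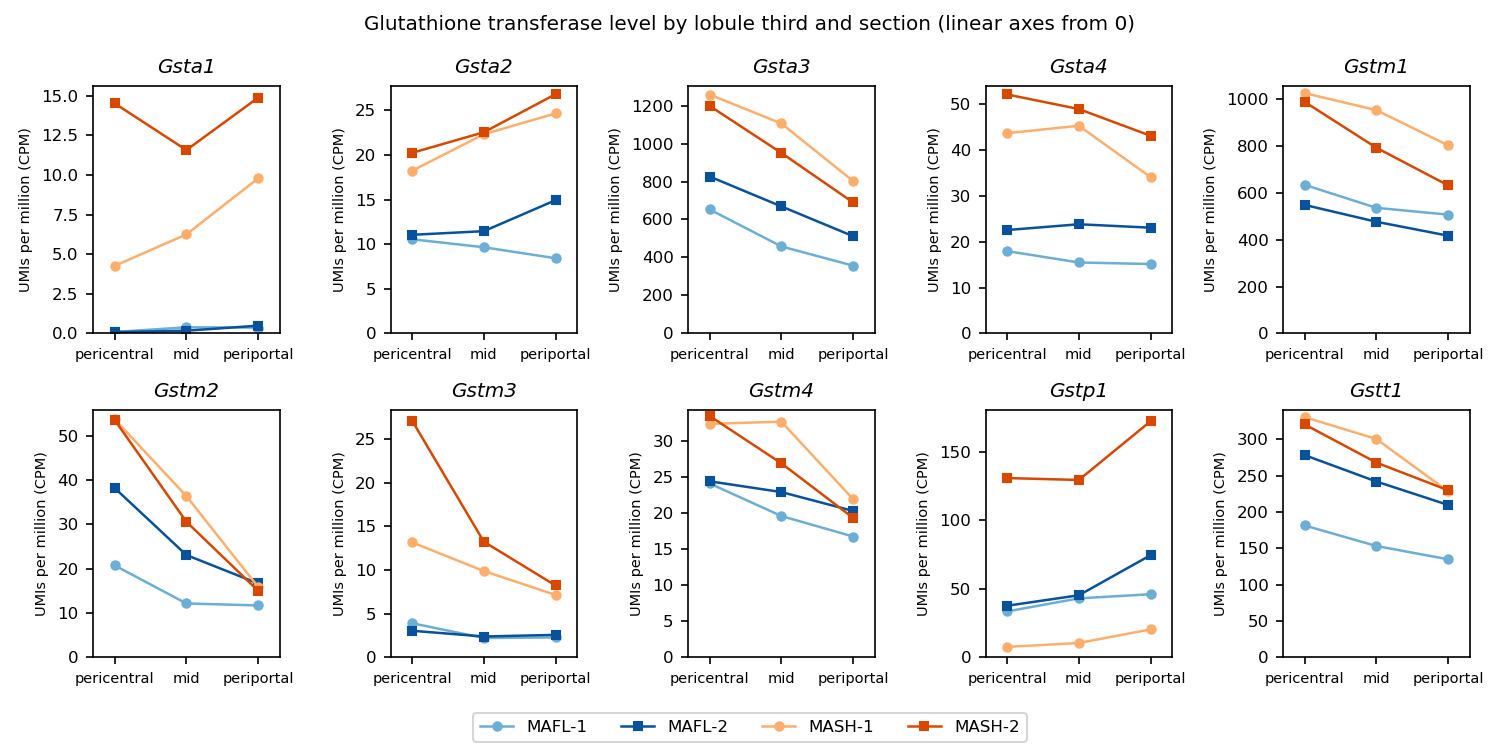
Level of each member in CPM (vertical axis, from 0, with its own scale per gene) in the pericentral, midlobular and periportal zone of each section, 1 line per section. Gsta1 lies near 0 in both MAFL sections and between 4.27 and 14.9 CPM in the MASH ones, and the MASH-1 and MASH-2 lines of Gstp1 lie on opposite sides of the MAFL lines.

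The increase of Gsta1 and Gstm3 was looked for in each zone of the lobule. In the pericentral zone 2 members were called higher and none lower (all genes, 0.602% called, 0.364% higher and 0.237% lower), Gstm3 (log2 fold change 2.36, SE 0.33, edgeR adjusted p = 0.0257) and Gsta4 (1.10, SE 0.18, edgeR adjusted p = 0.0354). In the midlobular zone 2 were called higher (0.445% and 0.311%), Gsta1 (4.86, SE 0.49, edgeR adjusted p = 0.0056) and Gstm3 (2.22, SE 0.25, edgeR adjusted p = 0.0099). In the periportal zone the same 2 genes were called (1.28% and 0.914%), Gsta1 (4.72, SE 0.36, edgeR adjusted p = 0.0011) and Gstm3 (1.57, SE 0.25, edgeR adjusted p = 0.029). Gstm3 was called in all 3 zones. Gsta1 rested there on 4 and 2 midlobular and 4 and 7 periportal UMIs in MAFL-1 and MAFL-2, against 120 and 138 and against 253 and 325 in MASH-1 and MASH-2. In each zone both MAFL sections were under the level that the low-count filter asks for (0.55 to 0.87 CPM), so that Gsta1 was tested there only because of its MASH level and had to differ, and its calls by zone support nothing beyond these counts. In whole sections both MAFL sections were just above that level (0.24 CPM). Both MASH sections lay above both MAFL sections for 9 members in the pericentral zone (34.2% of all genes), 9 in the midlobular zone (30.6%) and 7 in the periportal zone (31.6%), where Gstm2 and Gstm4 overlapped as well as Gstp1.

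Pericentral Gsta1 rested on 1 UMI in each MAFL section (0.09 and 0.08 CPM) against 80 and 157 UMIs in MASH-1 and MASH-2 (4.27 and 14.5 CPM). The sections did not overlap there either. The fit gave an edgeR adjusted p of 0.052 (6.3e-28 to 0.399 over 15 alternatives, 7 of them past the threshold), and the summed UMIs a ratio of 92.6 (exact 95% interval for counting error alone 25.4 to 769.4). Without MAFL-1 or without MAFL-2 edgeR called no member in the pericentral zone (4 and 6 had an unadjusted p under 0.05). The replicate block ended the calls of Gsta4 in the pericentral zone (edgeR adjusted p = 0.0874), of Gsta1 and Gstm3 in the midlobular zone (0.0579 and 0.0629) and of Gstm3 in the periportal zone (0.0676). The Gstm3 call was also lost with the outer 20% of spots in the pericentral zone (edgeR adjusted p = 0.0607), without MAFL-1 or without MAFL-2 in the midlobular zone (0.0745 and 0.0664), and without MAFL-1 or without MASH-2 in the periportal zone (0.0597 and 0.0604).

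**Figure D2:**
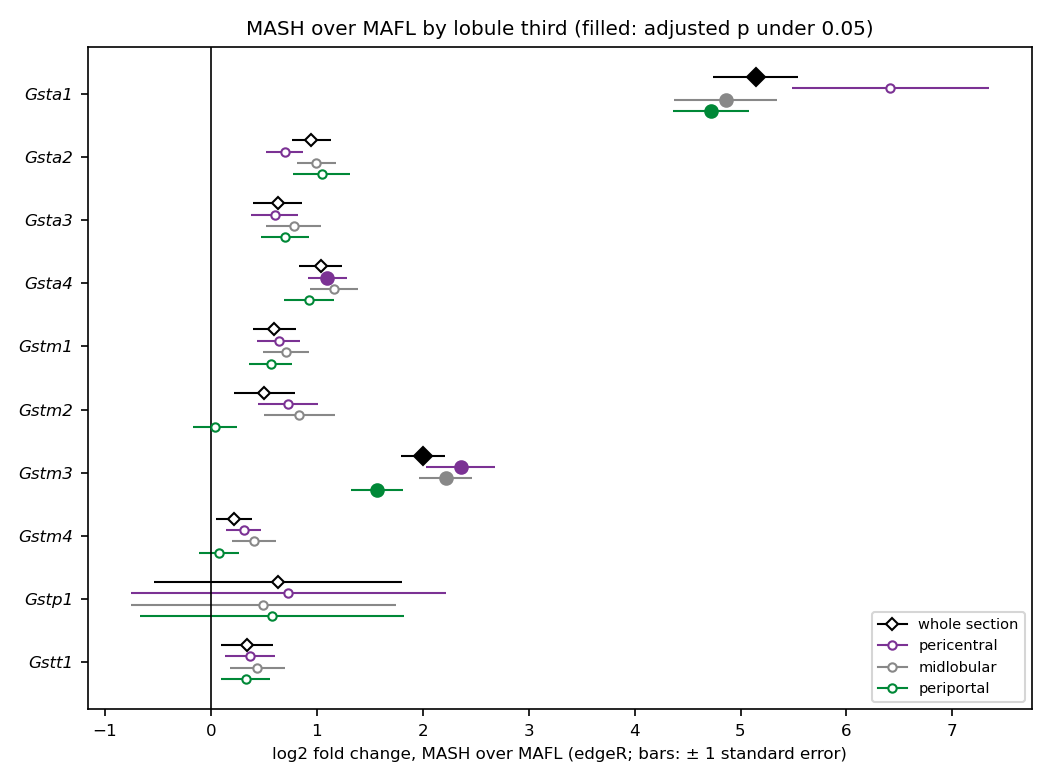
Log2 fold change of MASH over MAFL from edgeR (horizontal axis) for each member, in whole sections and in each lobule zone, with bars of 1 standard error and filled symbols for an adjusted p under 0.05. Gsta1 and Gstm3 stand to the right of the other members, and the widest bars are those of Gstp1.

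Single spots were read after thinning at random to 5000 UMIs, so that depth was equal, with shallower spots left out (98.3 to 99.1% of spots were kept in each section). Spots with at least 1 Gsta1 UMI made up 0.10% and 0.11% of the thinned spots in MAFL-1 and MAFL-2, and 3.34% and 6.28% in MASH-1 and MASH-2 (unthinned 0.39, 0.53, 14.7 and 22.1%). For Gstm3 the thinned shares were 1.35 and 1.13% in MAFL and 5.40 and 6.88% in MASH. For 8 of the 10 members both MASH sections had a higher thinned share than both MAFL sections, Gstm4 and Gstp1 being the exceptions, beside 31.1% of all genes tested. Gstp1 was seen in 17.9 and 21.4% of MAFL spots, 6.11% of MASH-1 spots and 48.2% of MASH-2 spots. Among all UMIs, the 10% of spots with the most Gsta1 held 74.4% of its UMIs in MASH-1 and 63.5% in MASH-2. Such a share is high for any gene seen in few spots, so it does not show that Gsta1 was focal. It was 100% for Gsta1 in both MAFL sections, and 53.9 and 57.2% for Gstm3 in MASH-1 and MASH-2. Single spots reached 5 Gsta1 UMIs in MASH-1 and, in the pericentral zone, 20 in MASH-2.

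**Figure D3:**
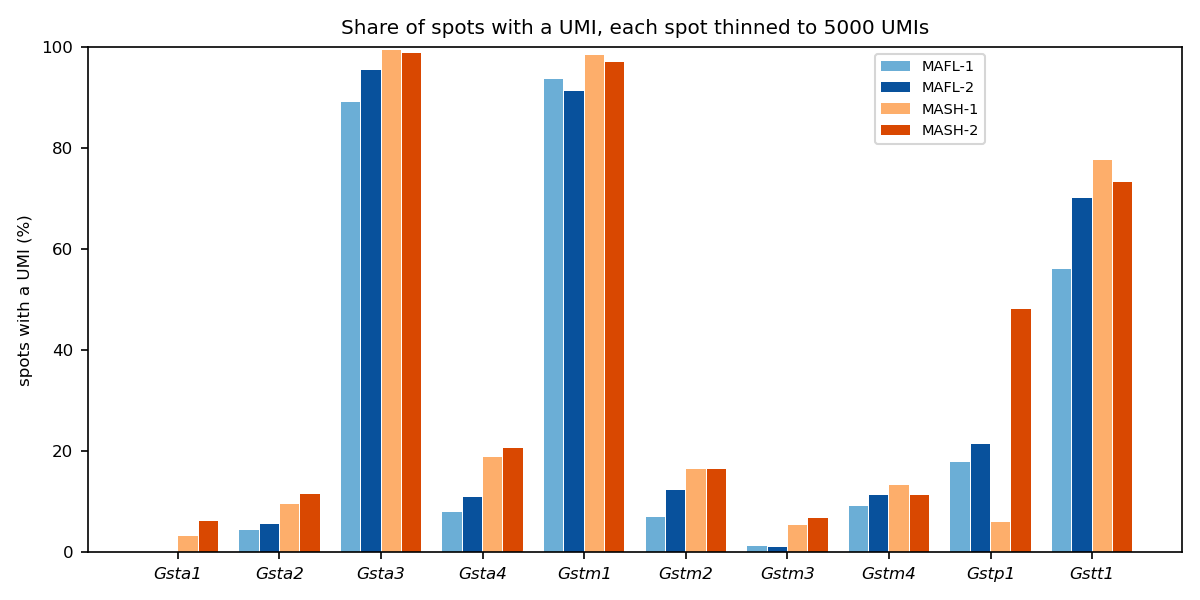
Share of spots with at least 1 UMI of each member (vertical axis, percent), after thinning to 5000 UMIs with shallower spots left out, 1 bar per section. The bars of Gsta1 are barely visible in MAFL and reach 3.34 and 6.28% in MASH, and the Gstp1 bar of MASH-2 exceeds that of MASH-1.

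Because 4 of the 11 monocyte and macrophage markers were called higher in MASH, Gsta1 and Gstm3 were also read in the spots of each section poorest and richest in them, with spots ranked by marker share and cut into 3 equal classes, a check added after the data were seen. In the lowest class, the markers summed to 364 and 481 CPM in MASH-1 and MASH-2, and Gsta1 stood at 6.05 and 12.8 CPM. In the highest class of MAFL-1 and MAFL-2, where the markers summed to 423 and 446 CPM, Gsta1 stood at 0.57 and 0.31 CPM. Gstm3 measured 10.1 and 10.8 CPM in those marker-poor MASH spots and 2.83 and 3.10 CPM in the marker-rich MAFL spots. Within the MASH sections, Gsta1 was higher in the marker-rich class, at 9.14 and 17.5 CPM, whereas Gstm3 stood there at 9.35 and 17.8 CPM, lower than in the marker-poor class of MASH-1 and higher than in that of MASH-2. A like sum is not a like mix of cells, since Gpnmb, a marker of lipid-associated macrophages, read 0.22 and 0.37 CPM in MAFL-1 and MAFL-2 but 12.6 and 42.4 CPM in MASH-1 and MASH-2, and the part of macrophages in the 2 differences was not tested.

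Across the lobule the members split by zone, with Gsta1, Gsta2 and Gstp1 higher towards the portal tract and the other 7 higher towards the central vein. With the section as a block, all 10 members were called between the periportal and pericentral zones, where 23.0% of the 12575 genes tested were called, 11.4% higher and 11.7% lower in the periportal zone. Of the 10, 3 were periportal and 7 pericentral, so that all 4 mu members and the theta member were pericentral while the alpha class held both directions.

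Gstm2 had the steepest gradient. From the pericentral to the periportal zone it went from 20.8 to 11.7 CPM in MAFL-1, from 38.2 to 16.7 CPM in MAFL-2, from 53.7 to 15.9 CPM in MASH-1 and from 53.6 to 15.1 CPM in MASH-2. All 4 sections fell, and the MASH sections fell further. The log2 difference, periportal over pericentral, was -1.48 (SE 0.17, edgeR adjusted p = 0.00081).

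Gstm3 followed, from 3.91 to 2.29 CPM in MAFL-1, from 3.05 to 2.58 CPM in MAFL-2, from 13.2 to 7.15 CPM in MASH-1 and from 27.1 to 8.24 CPM in MASH-2. Every section was lower in the periportal zone, with a log2 difference of -1.11 (SE 0.13, edgeR adjusted p = 4.7e-07). Gsta3 was the steadiest of the steep ones: its pericentral level exceeded the periportal level 1.83- and 1.61-fold in MAFL-1 and MAFL-2 and 1.57- and 1.74-fold in MASH-1 and MASH-2, on the log2(CPM + 1) scale. Its log2 difference was -0.72 (SE 0.05, edgeR adjusted p = 7.5e-15).

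The remaining pericentral members had shallower slopes. Gstm4 had a log2 difference of -0.51 (SE 0.07, edgeR adjusted p = 1.5e-07), Gstt1 of -0.43 (SE 0.05, edgeR adjusted p = 2.4e-09) and Gstm1 of -0.39 (SE 0.05, edgeR adjusted p = 1.5e-08). Each of these 3 genes was lower in the periportal zone of all 4 sections. Gsta4 was nearly flat, at -0.19 (SE 0.06, edgeR adjusted p = 0.0255), and MAFL-2 went the other way (22.5 CPM pericentral, 23.0 CPM periportal). Its call was lost with DESeq2 (adjusted p = 0.1995), without MAFL-1 (0.0595), without MASH-1 (0.424, at -0.10) and with a zone score that uses neither Cyp2f2 nor Cyp2e1 (0.294).

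On the periportal side, Gstp1 rose from 33.6 to 46.1 CPM in MAFL-1, from 37.7 to 74.6 CPM in MAFL-2, from 7.68 to 20.4 CPM in MASH-1 and from 130.9 to 172.3 CPM in MASH-2. All 4 sections rose, whatever their overall level, with a log2 difference of 0.78 (SE 0.15, edgeR adjusted p = 0.0112). The call was lost without MAFL-2 (edgeR adjusted p = 0.0835) and with the outer zones alone in the fit (edgeR adjusted p = 0.0708).

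Gsta2 rose from 11.1 to 14.9 CPM in MAFL-2, from 18.2 to 24.7 CPM in MASH-1 and from 20.3 to 26.8 CPM in MASH-2, but fell from 10.6 to 8.43 CPM in MAFL-1. Its log2 difference was 0.37 (SE 0.09, edgeR adjusted p = 0.0015), lost without MASH-2 (edgeR adjusted p = 0.0564) and with a score of 6 genes per side (edgeR adjusted p = 0.0549). Gsta1 rose from 4.27 to 9.78 CPM in MASH-1 but only from 14.5 to 14.9 CPM in MASH-2. The MAFL sections, at 1 against 4 and 1 against 7 UMIs, hold too few Gsta1 UMIs to read a direction. Its log2 difference of 0.64 (SE 0.16, edgeR adjusted p = 0.0029) became 0.27 without MASH-1 (edgeR adjusted p = 0.359), 0.60 with the outer 20% of spots (edgeR adjusted p = 0.0733) and 0.94 with DESeq2 (adjusted p = 0.181).

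**Figure D4:**
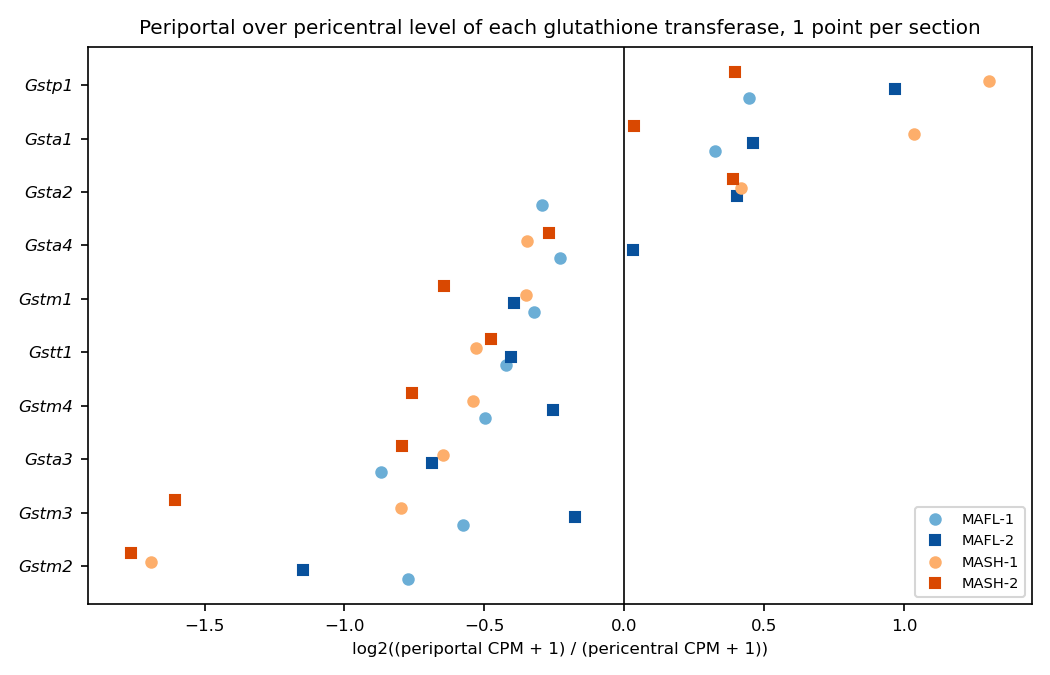
Log2 of the periportal over the pericentral level, each CPM plus 1 (horizontal axis), for each member, 1 point per section, ordered by the mean over sections. Points right of 0 are periportal: all 4 of Gstp1 and of Gsta1 and 3 of 4 of Gsta2, while Gsta3, Gstt1 and all mu members lie left of 0 in every section. The 2 MAFL points of Gsta1 rest on 1 against 4 and 1 against 7 UMIs. The added 1 CPM sets them, so nothing is read from them, and the MASH-2 point of Gsta1 is close to 0 (0.033).

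Bile duct markers moved with this axis too: 9 of 10 were called higher in the periportal zone, and their sum was 463 to 487 CPM in the pericentral and 611 to 697 CPM in the periportal zone of MAFL, and 452 to 708 and 639 to 1008 CPM in MASH. Krt8 and Krt18, keratins that hepatocytes also make, gave most of that sum (193 and 268 of 590 CPM in whole MAFL-1, 337 and 220 of 878 CPM in whole MASH-2). Krt19, Krt7, Epcam and Sox9 stood between 0.60 and 10.2 CPM in whole sections. From the pericentral to the periportal zone, Spp1 rose from 36.0 to 114.6 and from 27.0 to 97.1 CPM in MAFL-1 and MAFL-2. In MASH-1 and MASH-2, Spp1 rose from 31.8 to 151.0 and from 137.2 to 373.0 CPM. Tff3 rose from 19.4 to 52.7 and from 24.3 to 74.2 CPM in MAFL, and from 5.34 to 21.1 and from 4.99 to 14.5 CPM in MASH. In the spots of each zone with less of the marker sum, read after the data were seen, the sum was still higher in the periportal than in the pericentral zone (453 against 348 CPM in MAFL-1, 421 against 344 in MAFL-2, 416 against 340 in MASH-1 and 604 against 472 in MASH-2). The log2 differences of Gstp1 there, on the log2(CPM + 1) scale, were 0.43 and 0.92 in the MAFL sections and 1.22 and 0.63 in the MASH sections. Those of Gsta2 were -0.31, 0.34, 0.53 and 0.42. For Gsta1 they were 0.76 and 0.14 in the MASH sections, with its pericentral MASH-2 level at 9.13 CPM in place of 14.5 CPM. Its MAFL values of 0.62 and 0.14 rest on 0 against 3 UMIs in MAFL-1 and 1 against 2 in MAFL-2, pericentral against periportal. The added 1 CPM sets those 2 values, so nothing is read from them. What part duct cells have in the periportal levels was not tested.

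Over 10 equal classes of the same ranking, Gsta3 declined from the central to the portal end with few reversals, its most pericentral class standing 1.92- and 1.79-fold above the most periportal class in MAFL-1 and MAFL-2 and 1.78- and 2.10-fold above it in MASH-1 and MASH-2. Gstm2 declined 1.74-, 2.55-, 3.60- and 4.94-fold over the same span. Gstm3 in MASH-2 was highest at the central end, at 33.3 CPM in the most pericentral class and 7.13 CPM in the last. In MASH-1 it went from 10.7 CPM in the first class over 15.1 CPM in class 3 to 6.63 CPM in the last. A single spot held 20 of the 293 pericentral Gstm3 UMIs of MASH-2, where no pericentral spot of MASH-1 held more than 3. In the MASH-2 spots with less of the bile duct marker sum, Gstm3 stood at 19.4 CPM pericentral and 8.33 CPM periportal. The 2 MAFL sections stayed under 5 CPM of Gstm3 in every class.

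**Figure D5:**
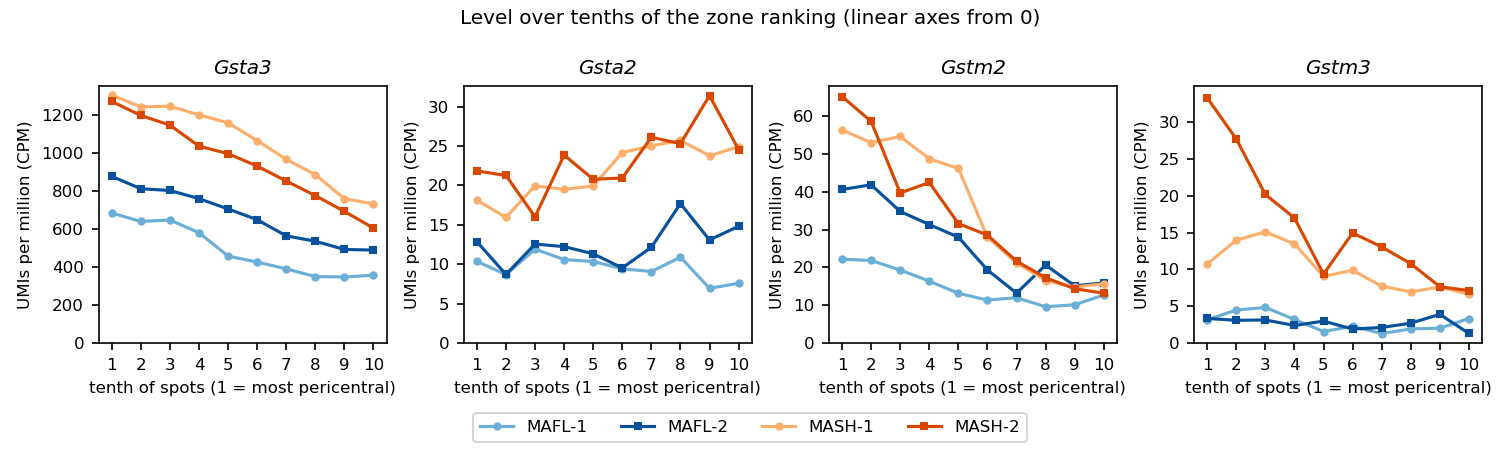
Level of Gsta3, Gsta2, Gstm2 and Gstm3 in CPM (vertical axis, from 0) over 10 equal classes of spots from the most pericentral (1) to the most periportal (10), 1 line per section. Gsta3 and Gstm2 are lower in class 10 than in class 1 in every section, Gsta2 is lower in MAFL-1 alone, and Gstm3 in MASH-2 is highest in the first class at 33.3 CPM.

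Whether the zone differed between MASH and MAFL was tested as an interaction, and 1 of the 10 members was called (all genes, 0.525% called and 0.215% lower). Gstm2 fell by 0.96 ± 0.27 (SD, n = 2) on the log2 scale from the pericentral to the periportal zone in MAFL, and by 1.73 ± 0.05 (SD, n = 2) in MASH. Its interaction was -0.67 (SE 0.14, edgeR adjusted p = 0.0052). In the pericentral zone Gstm2 was 20.8 and 38.2 CPM in MAFL and 53.7 and 53.6 CPM in MASH, while in the periportal zone the groups overlapped. Periportal spots of MASH were also deeper, and with spots thinned to 5000 UMIs, shallower ones left out, the value was -0.55 (edgeR adjusted p = 0.587). The call was also lost without MAFL-1 (-0.55, edgeR adjusted p = 0.474), without MAFL-2 (-0.91, edgeR adjusted p = 0.118) and with the outer 20% of spots (-0.69, edgeR adjusted p = 0.079).

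Gstm3 had an interaction of -0.75 (SE 0.30, edgeR adjusted p = 0.430), which was called without MASH-1 (-1.08, edgeR adjusted p = 0.0214), and Gsta1 one of -1.63 (SE 1.08, edgeR adjusted p = 0.732), the latter resting on 2 pericentral MAFL UMIs. The other 7 members lay between -0.22 and 0.35. The pericentral hepatocyte genes as a list had a median of -0.59 in the same interaction (2 of 16 called lower) and the periportal ones 0.27 (4 of 15 called higher), beside 0.00 over all genes.

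The 12 pairs of paralogues within the alpha and mu classes were compared section by section. They reuse 8 genes and so are not independent, and an exact sign-flip test over 4 sections cannot go below 0.13 (0.214 adjusted over the 12 pairs), so none could pass. Gsta2 was more periportal than Gsta3 in all 4 sections by 0.98 ± 0.27 (SD, n = 4) on the log2(CPM + 1) scale. Gsta1 is left out by zone, since its MAFL levels under 0.5 CPM leave the added 1 CPM to set the difference. Gstm2 was more pericentral than Gstm1 in all 4 sections by 0.92 ± 0.39 (SD, n = 4), and Gstm1 and Gstm4 differed by 0.09 ± 0.15 (SD, n = 4).

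Between the groups, an exact permutation of 2 against 2 sections allows no p below 0.33. On the log2(CPM + 1) scale, Gsta1 gained on Gsta2 by 2.11 in MASH, on Gsta4 by 1.99 and on Gsta3 by 2.37. Gstm3 gained on Gstm4 by 1.47, and the change of Gstm1 over Gstm3 was -1.08. Gstm1 and Gstm2 were the pair whose sections overlapped, at 0.06. How often other pairs of genes separate the groups was not counted, so nothing is read from the lack of overlap in the rest. The scale with 1 CPM added understates the change of Gsta1, whose MAFL levels lie under 1 CPM.

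Reads of these genes may be shared with near copies. Gsta1 and Gsta2 lie on chromosome 9 with 2 alpha-class copies between them, of which Gm3776 was at 0.03 and 0.05 CPM in MAFL and 1.39 and 3.27 CPM in MASH, and Gm10639 was at or near 0. Gstp2, the copy of Gstp1, was at 0.25 and 0.71 CPM in MAFL, 0.19 CPM in MASH-1 and 2.13 CPM in MASH-2. How the counting divided reads among such copies was not tested, so the split between Gsta1 and Gsta2, among the mu genes and between Gstp1 and Gstp2 is uncertain.

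Around the members, few other genes of the pathway passed the test between the groups. Over all genes in whole sections, 2605 of the 13593 tested had an unadjusted p under 0.05 in edgeR. DESeq2 also called more genes than edgeR did (counts below). The list counts at an unadjusted p or from DESeq2 stand beside these and are not read as results. Of 14 further glutathione transferases tested, edgeR called none in whole sections (11 of 14 above 0, median 0.30), 4 had an unadjusted p under 0.05 and DESeq2 called 1. The closest was Mgst3, a membrane-bound form, at a log2 fold change of 1.40 (edgeR adjusted p = 0.0796), which was called in the periportal zone (1.32, SE 0.23, edgeR adjusted p = 0.042). Of 24 genes of glutathione synthesis and use, edgeR called none (median 0.08), with 5 at an unadjusted p under 0.05 and 1 called by DESeq2. Of 26 Nrf2 target genes, edgeR called none (23 of 26 above 0, median 0.33), with 10 at an unadjusted p under 0.05 and 3 called by DESeq2. Of 19 CAR and PXR targets, Aldh1a7, an aldehyde dehydrogenase, was called higher (1.39, edgeR adjusted p = 0.040) and Alas1, which starts haem synthesis, lower (-1.23, edgeR adjusted p = 0.0488). In that list 4 had an unadjusted p under 0.05 and DESeq2 called 4. Its largest log2 fold change was 4.88, for a gene that edgeR did not call. Of 19 xenobiotic sensors and regulators edgeR called none, with 2 at an unadjusted p under 0.05 and 0 called by DESeq2. Of 21 other conjugation enzymes it called none, with 4 at an unadjusted p under 0.05 and 1 called by DESeq2.

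By zone the surrounding genes were more varied. Of the 14 further transferases 7 were called pericentral, led by Gstm6 (-0.86, edgeR adjusted p = 1.7e-11), and 3 periportal, among them Gstp2 (1.04, edgeR adjusted p = 0.0255). Of the 24 glutathione synthesis and use genes 7 were called periportal and 2 pericentral. The periportal ones included Gss, the glutathione synthetase (0.53, edgeR adjusted p = 1.3e-11), and Cth, which makes cysteine (0.34, edgeR adjusted p = 1.7e-07). Of 19 CAR and PXR targets 14 were called pericentral and 2 periportal. Nr1i3, which encodes CAR (-0.93, edgeR adjusted p = 2.4e-18), and Ahr (-1.34, edgeR adjusted p = 4.9e-07) were among the 6 of 19 sensors called pericentral.

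The genes whose level most resembled each member over the 12 sums (3 zones of 4 sections) were found among 4167 genes with a mean of at least 20 CPM, as a description with no test, since the zones of 1 section share its library. For Gsta1 they were Cd74, a chaperone of MHC class II, Tmsb4x and Ppia (Pearson r of 0.993, 0.993 and 0.991), for Gstm3 Anxa7, Eci1 and Fabp4 (0.988, 0.987 and 0.986), and for Gstm2 Alad, Lect2 and Cdh2 (0.983, 0.968 and 0.968). For Gsta3 the closest gene was Akr1c20 (0.983), for Gsta4 Dhrs7 (0.990), for Gstt1 Nrn1 (0.990), for Gsta2 Cox7b (0.977), for Gstm1 Arpp19 (0.974), for Gstm4 Cyp2c38 (0.973) and for Gstp1 Cdhr5 (0.965).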

How the data were processed

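The authors deposited counts, UMIs per gene and spot, from Space Ranger 1.2.2 (per the file headers) and mm10 (per the submitters' processing notes). How reads were assigned among near copies is not given in the sources used here. Spots under 500 UMIs were left out (3 in MAFL-1, 3 in MASH-1), and spots were not typed and doublets not called, since a spot holds several cells. Between 63.4 and 85.4% of the barcodes of the smaller section recurred in another section, as slides share 1 barcode set. Replicate sections differed beyond sampling noise (chi-square per degree of freedom 67.7 in MAFL, 116 in MASH).

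UMIs were summed per section, or per section and zone, and fitted with edgeR 4.0.16 in R 4.3.3 (TMM, filterByExpr, robust quasi-likelihood, Benjamini-Hochberg over all genes tested, adjusted p of 0.05), with DESeq2 1.42.0 as an alternative. The zone fit used 12 sums with the section as a block. Levels are CPM, and log2 ratios of levels add 1 CPM to each. Python 3.11.15 (numpy 2.4.6, scipy 1.17.1, pandas 2.3.3) did the rest. The whole-section, zone and interaction fits were also run on counts simulated from edgeR's own dispersions. The group fits within single zones were not, and the outcome is not given here. In all, 93 alternatives were listed, and 4 were added after the data were seen. Intervals cover counting error only. All 10 members were named, and of each pathway list up to 4 genes with the smallest p. The members and 17 lists were chosen with earlier results of these data known; a few list genes outside that rule (Mgst3 in the periportal zone, Gstp2) were named after their values were seen.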

Additional observations from a re-analysis of the deposited data

Results flagged for a closer look

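Gstm2 met the rule for a difference between the groups under the same contrast: its periportal over pericentral log2 difference was lower in MASH than in MAFL by an interaction of -0.67 (SE 0.14, edgeR adjusted p = 0.0052), with the 2 MASH sections at -1.69 and -1.76 and the 2 MAFL sections at -0.77 and -1.15 on the log2(CPM + 1) scale. The groups did not overlap, but the share of all genes whose zone difference separates the groups was not counted. Of the 16 pericentral hepatocyte genes, 15 were also below 0 in this interaction, with a median of -0.59 (2 called lower). Depth moved with the Gstm2 difference, since periportal spots of MASH held more UMIs than pericentral ones. After thinning the Gstm2 value was -0.55 (edgeR adjusted p = 0.587). What part depth has in it was not tested beyond that. No group had enough sections for a test of single outlying sections.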

How the results depend on the processing

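Counts of members called in MASH against MAFL moved with the setting, and the cause was not tested. In whole sections (2 members) DESeq2 and no filter on low counts each called 4, and leaving out 1 section in turn gave 1 to 3. In the pericentral zone (2) no filter gave 5, the outer 20% of spots 1, and leaving out 1 section 0 to 4. In the midlobular zone (2) DESeq2 gave 4, no filter 6, and leaving out 1 section 1 to 3. In the periportal zone (2) DESeq2 gave 4, no filter 5, and leaving out 1 section 1 to 4. For the zone interaction (1) thinning to 5000 UMIs and the outer 20% of spots each gave 0, with 2 and 3 members at an unadjusted p under 0.05 in edgeR, and leaving out 1 section 0 to 2. DESeq2 gave Gstm2 no adjusted p there (log2 difference -0.70, unadjusted p = 0.00079). The zone fit called 8 to 10 members over its 15 alternatives, and 8 members had higher MASH shares of spots without thinning too.

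Sections of both groups carry replicate numbers 1 and 2. Deviations of same-numbered sections correlated at -0.18 over 13586 genes, so the numbers were not shown to pair sections. With the replicate number as a block, edgeR called 0 members in whole sections, 2 in the pericentral, 0 in the midlobular and 1 in the periportal zone, and 1 in the interaction, where 5 and 6 members had an unadjusted p under 0.05 in whole sections and in the midlobular zone. A block with the numbers crossed, added after the data were seen, called 4 members and 779 genes in whole sections.

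Directions reversed for members whose difference was not called. Gstp1 in MASH against MAFL ranged, on leaving out 1 section, from -1.84 to 1.48 in whole sections, -2.26 to 1.63 in the pericentral, -2.08 to 1.37 in the midlobular and -1.63 to 1.41 in the periportal zone, each negative without MASH-2 (edgeR adjusted p = 1.0e-08 pericentral and 0.0032 midlobular). With the block it was -0.14, -0.21, -0.30 and -0.038, and with the crossed block -0.13. In the periportal zone Gstm2 ranged from -0.22 to 0.35 (negative without MAFL-1 and without MASH-1, at -0.023), and Gstm4 from -0.084 to 0.25 (negative without the same sections, -0.039 without MASH-1) and was -0.31 with thinning. In the interaction Gstm1 became 0.062 with thinning, Gstt1 0.087 without MASH-1, and Gstp1 -0.064 with library totals alone, -0.042 with thinning, -0.011 with 6 score genes per side, -0.0089 with 5, and from -0.22 to 0.62 on leaving out 1 section (-0.20 without MAFL-1).

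Counts over all genes moved as well. In whole sections, 62 genes became 627 with DESeq2, 1153 with no filter, 0 with the block and 20 to 535 on leaving out 1 section; the zone fit's 2893 became 1682 with DESeq2 and 1285 with thinning, and the interaction's 66 became 118 with no filter, 31 with thinning, 102 with the block and 7 to 441 on leaving out 1 section. In the pericentral zone, 71 ranged from 29 to 1490 over the alternatives, in the midlobular zone 53 from 6 to 957, and in the periportal zone 160 from 71 to 1180. With 2 sections per group, 1 section left out leaves a lone section that is assumed to vary like the other group. Depth limits Gsta1 in MAFL, seen with 19 UMIs in 2 sections.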

Other observations

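Gstp1 stood apart between the 2 MASH sections, and so did other genes. Among 4159 genes with a mean of at least 20 CPM, Mup7, a major urinary protein gene, differed most, at 995 CPM in MASH-1 and 36.2 CPM in MASH-2 (6500 and 5857 CPM in MAFL-1 and MAFL-2). Cfd, the adipsin gene, was second, at 386.6 CPM in MASH-1 and 26.1 CPM in MASH-2 (6.45 and 43.0 CPM in MAFL). Hsd3b5, a steroid dehydrogenase of male mouse liver, stood at rank 5, at 35.5 and 4.04 CPM (53.6 and 56.7 CPM in MAFL). Gstp1 stood at rank 3, 11.0-fold higher in MASH-2, so its direction was opposite to that of Mup7 and Hsd3b5. The Y-linked gene Ddx3y was present in all 4 sections (30.5 to 53.1 CPM), and Xist was at no more than 0.093 CPM in any. These genes were chosen after their values were seen.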
